A study of Homo sapiens with 12 samples.

Results

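The genes described here encode the NADPH oxidases of the colonic epithelium, NOX1, DUOX1 and DUOX2, with the proteins they need to work: NOXO1, NOXA1, CYBA and RAC1 for NOX1, and DUOXA1 and DUOXA2 for the DUOX enzymes. The 9 genes were picked by symbol from 60675 gene IDs, with their CPM (counts scaled to a common library size) over all 4 groups already known. Their own levels and differences are therefore given as a description and carry no test. The cells were HT29, an established line from a human colorectal adenocarcinoma. In 12 RNA libraries, 3 per group, these cells had been kept for 24 h in a six-well format with a water extract of Aconitum carmichaeli Debeaux (ACD) at a low, a medium or a high dose of 20, 100 and 500 µg/mL, or with vehicle alone, which was PBS holding 2% DMSO, also the solvent of the extract stock. The authors added the extract to culture medium already in the wells, so DMSO there was below the 2% of the stock. The library titles and the treatment field name ACD, while a longer treatment note kept with the samples describes a water extract of Poria cocos. Groups follow the titles. HT29 is 1 cancer line without the immune, stromal and microbial surroundings of the colon. Only the titles mark the 3 libraries of a group as replicates, so the spread between them may be technical.

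NADPH oxidases are membrane enzymes that pass electrons from NADPH across the membrane to oxygen, giving superoxide or hydrogen peroxide. NOX1 is the main form in colonic epithelium, sits in the membrane with the small subunit p22phox (CYBA), and becomes active when the organizer NOXO1, the activator NOXA1 and the GTPase RAC1 join it. DUOX1 and DUOX2 release hydrogen peroxide directly in response to calcium, each with its own maturation factor (DUOXA1, DUOXA2), and DUOX2 is known as an inducible defence gene of the gut surface.

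The libraries held 15941255 to 33866644 expected counts. Mitochondrial ribosomal RNA took 1.14% to 1.22% of the counts in vehicle libraries, 0.982% to 1.14% in low-dose, 1.96% to 2.18% in medium-dose and 11.3% to 12.5% in high-dose libraries. High-dose replicate 2, the smallest library, stood apart from its group. The SD over genes of its log2 CPM difference from the mean of the rest of its group was 0.502. In the other 11 libraries this SD was 0.102 to 0.293, over 10626 genes above 5 CPM. All 10 colonic epithelium markers were above 1 CPM in every group, with a summed level of 10991 to 13198 CPM. Of the 10 leukocyte and phagocyte markers, 4 were above 1 CPM in each group and the sum was 13.8 to 16.1 CPM in vehicle, low and medium libraries and 16.9 to 19.6 CPM at the high dose, with MS4A1 and NCF4 at 0 throughout. A gene was called at a fold change over 1.5 with an edgeR adjusted p under 0.05. At the high dose the leukocyte marker ITGAM was called higher (log2 fold change 0.77, edgeR adjusted p = 0.0473). CD68 was at 0.57 (adjusted p = 0.0151), under 1.5-fold. CYBB was at −0.43 (adjusted p = 0.303) and CD14 at −0.19 (adjusted p = 0.702), so 2 of the 4 tested leukocyte markers were above 0. The epithelial marker CEACAM5 was called higher (0.70, adjusted p = 0.0132). It was the only 1 called of the 10 epithelial markers, of which 6 were above 0. The 10 fibroblast and endothelial markers summed to 4.24 to 5.88 CPM. The part of these differences in the results below was not tested, apart from the alternatives named beside them.

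NOX1 was lower with more extract, at 41.8% of the vehicle level with the high dose. NOX1 (ENSG00000007952, GRCh38 chrX:100843324-100874359, minus strand) encodes the catalytic subunit. Its level in the vehicle libraries was 17.6, 18.7 and 16.9 CPM. At the low dose it was 16.7, 16.2 and 17.6 CPM. The vehicle and low-dose libraries overlapped. At the medium dose the values were 10.9, 11.7 and 12.5 CPM. At the high dose they were 7.16, 8.21 and 7.04 CPM. Each of these groups lay wholly below the group before it, and the stand-apart library, high-dose replicate 2, had the highest NOX1 of its group. In RNA from whole cultures, fewer cells with NOX1 and less NOX1 RNA per cell cannot be told apart.

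The group means of NOX1 were 17.7 ± 0.903 CPM in vehicle and 16.8 ± 0.745, 11.7 ± 0.801 and 7.47 ± 0.644 CPM at the low, medium and high doses (SD, n = 3). The log2 fold change against vehicle was −1.26 (SE 0.09, 95% interval −1.46 to −1.06) at the high dose, which is 41.8% of the vehicle level. At the medium dose it was −0.60 (SE 0.09, −0.78 to −0.41), or 66.1% of vehicle. At the low dose it was −0.08 (−0.26 to 0.11). Against the low dose instead of vehicle, the high dose stood at −1.18 (−1.38 to −0.98). Counts behind these values ran from 116 to 617 reads per library and were whole numbers in all 12 libraries, which is what RSEM gives where no read is divided between genes. The NOX1 locus shares 1092 bp with the processed pseudogene HNRNPA1P26 on the same strand, which was at 0.103 CPM. The high-dose value was −1.32 without high-dose replicate 2, and −1.26 with mitochondrial genes left out of the library sizes.

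The medium-dose difference of NOX1 lay close to the fold-change threshold of 1.5, which is 0.585 on the log2 scale. It fell short of the threshold without vehicle replicate 2 (−0.55), without medium-dose replicate 1 (−0.55) and with no filter on low counts (−0.58). By size, NOX1 ranked 63 among the 258 genes called lower at the high dose and 44 among 45 with the medium dose. Among the other tested oxidase genes, the nearest value short of the threshold was that of NOXA1 at the medium dose, −0.49 with an interval of −1.37 to 0.40.

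Of 15374 genes tested, 2.93% were called for the high dose, 0.676% for the medium and 0.111% for the low dose, all against vehicle, and 1.58% for the high against the low dose. Of the 9 oxidase genes, 6 passed the filter on low counts, and 1 of the 6, NOX1, was called lower for the high and medium doses and for the high against the low dose, with 0 called for the low dose. Since the genes were picked with these values known, these calls are no test of them and are not read against the background.

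**Figure D1:**
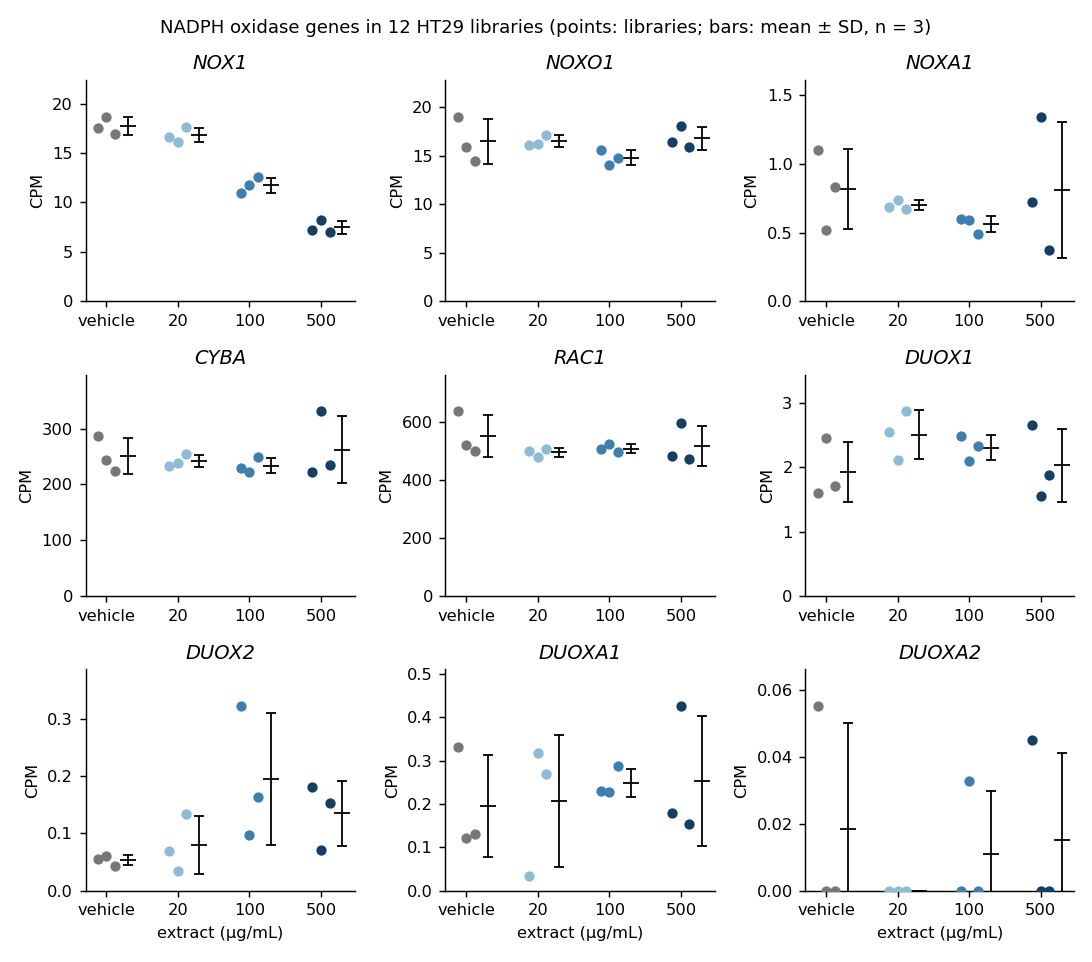
CPM of the 9 oxidase genes (vertical axis, from 0, a separate scale per gene) in vehicle and at 20, 100 and 500 µg/mL ACD (horizontal axis); points are libraries and the bar beside them is the mean ± SD of 3, cut off at 0. NOX1 goes from 16.9 to 18.7 CPM in vehicle down to 7.04 to 8.21 CPM at the high dose, whereas every dose of NOXO1, CYBA and RAC1 overlaps vehicle and DUOX2 and DUOXA2 stay at or under 0.321 CPM in every library.

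The DNA around the start of NOX1 is shown because NOX1 was the member whose level differed, beside the starts of NOXO1, its organizer, whose groups overlapped vehicle, and of DUOX2, which was close to 0. The sequences come from RefSeq (GRCh38.p14), which held windows for 8 of the 9 genes (RAC1 is the missing entry), and run 5′ to 3′ on the gene's strand from 250 bases before to 30 bases after the RefSeq start. The windows are chrX:100874330-100874609 for NOX1, chr16:1981440-1981719 for NOXO1 and chr15:45114143-45114422 for DUOX2, all on the minus strand. Capitals mark matches to 4 GATA-type words, which were TGATAA with AGATAA and the AGATAG with TGATAG, and to the TATA-type word TATAAA, on either strand.
NOX1: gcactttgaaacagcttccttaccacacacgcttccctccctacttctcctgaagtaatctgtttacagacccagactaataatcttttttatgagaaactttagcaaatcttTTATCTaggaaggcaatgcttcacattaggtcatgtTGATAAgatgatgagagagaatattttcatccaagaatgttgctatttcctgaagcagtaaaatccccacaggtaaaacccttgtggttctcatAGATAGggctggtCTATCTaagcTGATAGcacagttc
NOXO1: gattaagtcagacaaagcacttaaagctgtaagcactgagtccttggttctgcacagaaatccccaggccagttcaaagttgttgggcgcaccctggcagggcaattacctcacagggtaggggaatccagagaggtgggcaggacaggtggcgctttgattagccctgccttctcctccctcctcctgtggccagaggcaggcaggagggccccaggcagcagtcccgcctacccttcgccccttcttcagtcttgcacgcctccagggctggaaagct
DUOX2: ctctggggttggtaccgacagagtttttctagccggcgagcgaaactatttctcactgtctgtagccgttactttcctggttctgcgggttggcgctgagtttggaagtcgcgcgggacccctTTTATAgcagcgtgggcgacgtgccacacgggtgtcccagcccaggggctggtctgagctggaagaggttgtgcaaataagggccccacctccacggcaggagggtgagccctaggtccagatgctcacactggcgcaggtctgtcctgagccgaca

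The NOX1 window held 5 GATA-type matches and none of the other members' windows held any. TGATAA lay at −101 from the start, AGATAG at −7 and TGATAG at 17, and AGATAA (read as TTATCT) at −137 and AGATAG (as CTATCT) at 7 on the opposite strand, none overlapping another. Over 35116 RefSeq windows, each with 50 bases after the start, TGATAA was in 7.53%, AGATAA in 10.3%, AGATAG in 6.63% and TGATAG in 5.8%, at least 1 of the 4 words was in 25%, and 22 windows (0.0626%) held 5 or more matches. The words were chosen after the NOX1 sequence had been seen, so these shares are a description only. GC content was 40.3% in the NOX1 window, lower than in most windows (11.8% of all had less, and the median was 58.7%), 57.7% for NOXO1 and 60.3% for DUOX2.

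Other words searched on both strands were the CDX-type word TTTATG, found in the NOX1 window at −162 and in 10.6% of all windows, and the AhR-type core GCGTG, found in windows of NOX1, NOXO1, NOXA1, CYBA, DUOX2 and DUOXA2 and in 36.5% of all. TATAAA was in 11.5% of all windows and, among the members, at −127 on the opposite strand for DUOX2 and at −32 for DUOXA2. Those are the same 6 bases, because DUOX2 and DUOXA2 start 154 bp apart on opposite strands. The HNF1-type word GTTAAT (6.88% of all windows), the STAT-type word TTCNNNGAA (7.66%), the NF-kB-type word GGANTTTCC (1.64%), the AP-1-type word TGANTCA (7.71%) and the NRF2-type word TGACNNNGC (13.3%) were in no member's window.

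For the partners of NOX1, the 95% intervals of the differences from vehicle included 0 at every dose, and they give how far the levels could have moved. NOXO1 (ENSG00000196408, chr16:1978917-1984192, minus strand), the organizer, was at 19.0, 15.9 and 14.5 CPM in vehicle. The low-dose libraries held 16.1, 16.2 and 17.2 CPM and the medium-dose libraries 15.6, 14.0 and 14.8 CPM. At the high dose it was at 16.4, 18.1 and 15.9 CPM, inside the range of vehicle. The medium-dose libraries lay below those of the low and high doses and overlapped vehicle. The log2 fold change was 0.03 at the high dose, with an interval of −0.19 to 0.25. At the medium dose it was −0.15 (−0.37 to 0.07). The NOXO1 locus shares 4013 bp with TBL3 on the opposite strand, which was expressed at 70.0 CPM, and NOXO1 counts were not whole numbers in any of the 12 libraries. With the strand setting of the counting not given in the sources used here, reads of this pair may not be fully separated.

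NOXA1 (ENSG00000188747, chr9:137423350-137434406, plus strand), the activator, was measured at few reads, 12 to 21 per library. Its level was 1.10, 0.515 and 0.835 CPM in vehicle, and 0.720, 1.34 and 0.369 CPM at the high dose. The high-dose libraries lay on both sides of all vehicle libraries, and high-dose replicate 2 was the highest of the 12. Low-dose libraries held 0.687, 0.740 and 0.671 CPM, and medium-dose libraries 0.597, 0.588 and 0.491 CPM. The interval of the high-dose log2 fold change ran from −0.98 to 0.78, so a difference as large as that of NOX1 at the medium dose was not detectable at this depth. NOXA1 overlaps the last 43 bp of ENTPD8 on the opposite strand, itself at 0.461 CPM.

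CYBA (ENSG00000051523, chr16:88643275-88651083, minus strand) encodes p22phox, the membrane partner. Its level was 286, 244 and 224 CPM in vehicle and 222, 331 and 235 CPM at the high dose. The 331 CPM was in high-dose replicate 2, and the other high-dose libraries lay inside the vehicle range. Low-dose libraries held 233, 239 and 254 CPM, and medium-dose libraries 229, 223 and 248 CPM. The high-dose log2 fold change was 0.06 (−0.24 to 0.36). RAC1 (ENSG00000136238, chr7:6374527-6403967, plus strand), the GTPase switch, was at 635, 519 and 501 CPM in vehicle and 482, 595 and 473 CPM at the high dose. Its low-dose values of 500, 478 and 506 CPM and medium-dose values of 504, 524 and 495 CPM lay within 1 narrow band. RAC1 counts were not whole numbers in any of the 12 libraries, so some of its reads may have been divided with other genes. The high-dose log2 fold change of RAC1 was −0.09 (−0.33 to 0.14), and the 95% intervals of CYBA and RAC1 at all 3 doses stayed inside the 1.5-fold threshold.

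**Figure D2:**
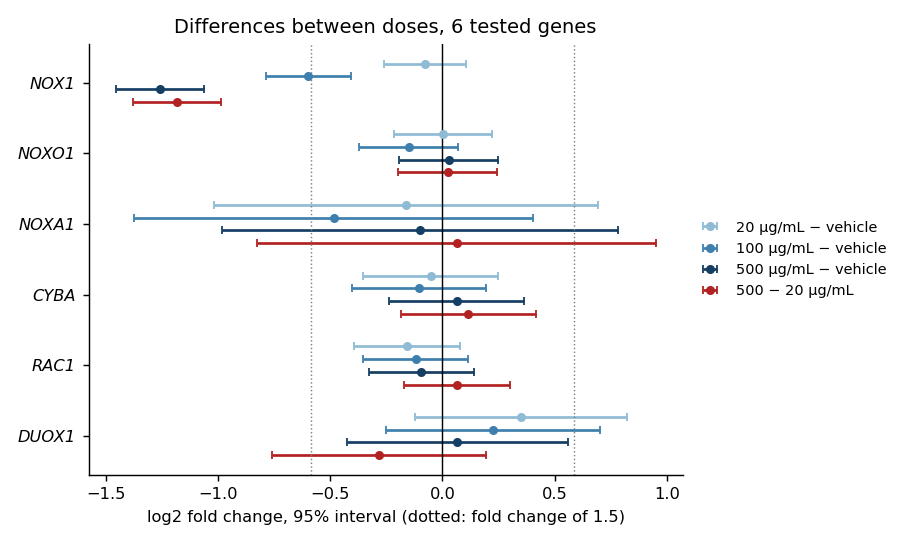
Log2 fold change (horizontal axis) with its 95% interval for the 6 oxidase genes that passed the filter, at 20, 100 and 500 µg/mL against vehicle and for 500 against 20 µg/mL; dotted lines mark a fold change of 1.5. The NOX1 interval at the high dose, −1.46 to −1.06, lies wholly beyond the line, and every interval of the other 5 genes includes 0.

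Within a library, the NOX1 level was set against each partner, which removes the scaling of the library. The ratio of NOX1 to NOXO1 CPM was 1.09 ± 0.144 in vehicle and 1.02 ± 0.020 at the low dose. In medium-dose libraries it was 0.793 ± 0.081, and in high-dose libraries 0.444 ± 0.009 (SD, n = 3), with all medium libraries below all vehicle libraries and all high-dose libraries below those. As a percentage of CYBA, NOX1 stood at 7.12 ± 0.857 in vehicle and 6.95 ± 0.185, 5.02 ± 0.250 and 2.90 ± 0.382 at the rising doses. As a percentage of RAC1 it went from 3.25 ± 0.435 to 1.45 ± 0.061 between vehicle and high dose. The high-dose replicate that stood apart had a NOX1 to NOXO1 ratio of 0.453, against 0.436 and 0.444 in the other high-dose libraries.

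**Figure D3:**
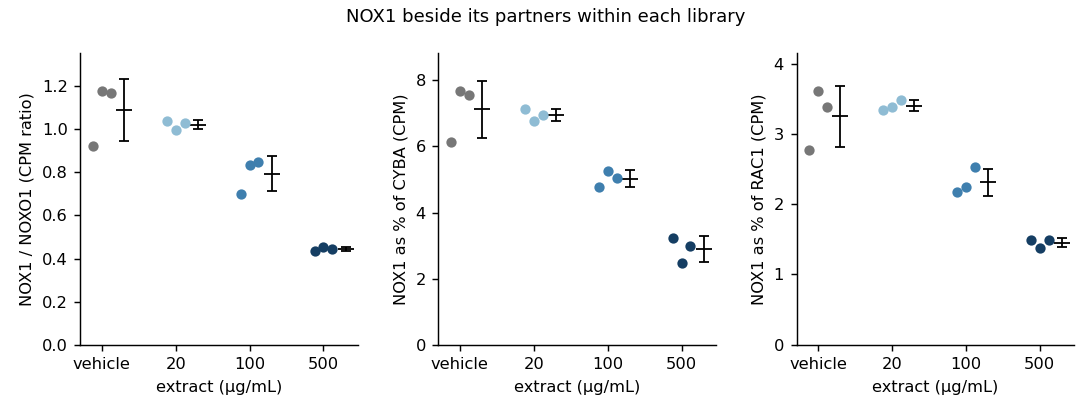
NOX1 CPM divided by that of NOXO1 (left), and as a percentage of CYBA (middle) and of RAC1 (right), per library at each dose; points are libraries and bars the mean ± SD of 3. The NOX1 to NOXO1 ratio goes from 0.922 to 1.18 in vehicle down to 0.436 to 0.453 at the high dose.

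Compared per kilobase of canonical transcript, the subunits were at very unequal levels in vehicle. CYBA stood at 363 and RAC1 at 239 CPM per kb, while NOXO1 stood at 10.7 and NOX1 at 6.97. The libraries of NOXO1 (9.41 to 12.4) and NOX1 (6.65 to 7.35) did not overlap on this scale. NOXA1 followed at 0.506 (0.319 to 0.682) and DUOX1 at 0.350 (0.291 to 0.448), and these neighbours overlapped. DUOXA1 was at 0.0627, DUOXA2 at 0.0105 and DUOX2 at 0.00836 CPM per kb. The order of CYBA and RAC1 turned with the length used, since over all annotated exons RAC1 was at 66.6 and CYBA at 60.4. Over all exons NOXO1 was at 7.64 (6.72 to 8.82) and its libraries overlapped those of NOX1, whose length was the same by both measures. The CYBA level per kb was 52.1 ± 6.74 times that of NOX1 in vehicle and 128 ± 17.8 times at the high dose.

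DUOX1, DUOXA1, DUOXA2 and DUOX2 lie side by side on chromosome 15 within 72927 bp (chr15:45092650-45165576). DUOX1 (ENSG00000137857, chr15:45129933-45165576, plus strand) was the only DUOX gene to pass the filter. Its level was 1.60, 2.45 and 1.71 CPM in vehicle and 2.54, 2.11 and 2.86 CPM at the low dose. Medium-dose libraries held 2.48, 2.09 and 2.33 CPM, and high-dose libraries 2.66, 1.56 and 1.88 CPM. Vehicle overlapped every dose. The log2 fold change was 0.35 (−0.12 to 0.82), 0.22 (−0.25 to 0.70) and 0.07 (−0.42 to 0.56) at the rising doses, so intervals reached past a 1.5-fold rise at the low and medium doses. Without vehicle replicate 2, the highest of its group, the medium-dose value was 0.47. DUOX1 counts were whole in 1 of 12 libraries and those of its near relative DUOX2 in 9 of 12. The DUOX1 locus shares 12913 bp with a long non-coding RNA (ENSG00000259539) on the opposite strand, which was at 0.120 CPM. Which genes shared the divided reads of DUOX1 was not tested.

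DUOX2 (ENSG00000140279, chr15:45092650-45114172, minus strand) was near the limit of detection in every library, so the name of a DUOX2 complex is not borne out by expression in these cells. It had 1.04, 2 and 1 expected counts in vehicle and 2, 1 and 3 at the low dose. Medium-dose libraries held 7, 3.1 and 4.11 counts, and high-dose libraries 4, 1 and 5. Each library of the medium and high doses had more CPM than each vehicle library, at 0.098 to 0.321 and 0.071 to 0.180 against 0.044 to 0.061 CPM. For the high dose this order rests on library size. High-dose replicate 2 had 1 count in 15941255, and vehicle replicate 2 had 2 in 31811972. The summed counts were 4 in vehicle (exact 95% Poisson interval 1.09 to 10.2), 6 (2.2 to 13.1) in low-dose, 14 (7.65 to 23.5) in medium-dose and 10 (4.8 to 18.4) in high-dose libraries. These intervals cover counting error only, and they overlap between all groups. DUOX2 was left out by the filter and no fold change is given.

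DUOXA1 (ENSG00000140254, chr15:45117366-45129938, minus strand), the maturation factor of DUOX1, had 1 to 9 counts per library. Its level was 0.034 to 0.425 CPM, with all groups overlapping, and the sums were 13 counts in vehicle and 16, 19 and 15 at the rising doses. DUOXA2 (ENSG00000140274, chr15:45114326-45118421, plus strand), the maturation factor of DUOX2, had 3 counts in all 12 libraries together, in vehicle replicate 1, medium-dose replicate 2 and high-dose replicate 1. The other 9 libraries were at 0. DUOXA2 shares 1056 bp with DUOXA1 on the opposite strand, and the starts of DUOXA1 and DUOX1 overlap by 6 bp, so single reads there are of uncertain origin.

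The 5 genes whose 12 values followed NOX1 most closely were PGM2L1, TXNIP, SLC38A11, FILIP1L and LINC00261. Likeness was the root mean square difference of log2 CPM, each gene centred on its vehicle mean, over 12 libraries and 10625 genes of at least 5 CPM. The distances were 0.164, 0.167, 0.171, 0.181 and 0.190 in that order. TXNIP, a binding protein of thioredoxin, was at 56.3 ± 2.50 CPM in vehicle, and 52.1 ± 4.06, 35.5 ± 1.12 and 21.8 ± 6.17 CPM at the rising doses (SD, n = 3). PGM2L1, which makes glucose 1,6-bisphosphate, went from 10.9 ± 0.355 CPM in vehicle to 4.69 ± 0.768 at the high dose. SLC38A11, of an amino acid transporter family, stood at 12.5 ± 1.32 and 5.67 ± 0.409 CPM. FILIP1L was at 8.04 ± 0.234 and 3.77 ± 0.181 CPM, and the long non-coding RNA LINC00261 at 16.1 ± 1.64 and 7.15 ± 1.02 CPM. They lie on chromosomes 11, 1, 2, 3 and 20 and were chosen by these values, so their likeness carries no test. For DUOX2 (nearest VIPR1 at 0.329) and DUOXA2 (nearest PITX1 at 0.182) the measure rests on at most 7 and 1 counts per library, and no further list is given.

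**Figure D4:**
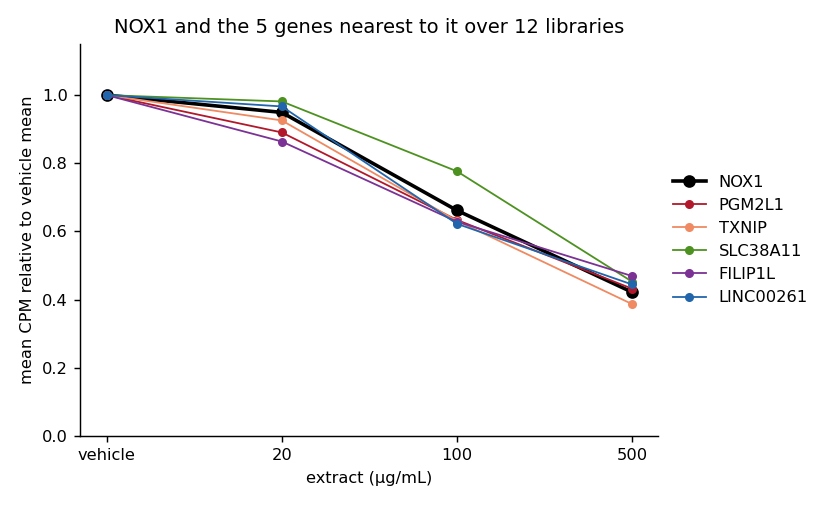
Mean CPM relative to the vehicle mean (vertical axis, from 0) at each dose (horizontal axis) for NOX1 and the 5 genes nearest to it, 3 libraries per point. NOX1 ends at 7.47 CPM from 17.7 and TXNIP at 21.8 from 56.3, and SLC38A11 lies above the others at the medium dose.

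The genes tested next to NOX1 on chromosome X did not pass the test at the high dose. CSTF2, an RNA cleavage factor 1804 bp away, had a log2 fold change of 0.12 (SE 0.07, edgeR adjusted p = 0.378). SYTL4 was at −0.09, and XKRX at −0.33 (adjusted p = 0.201). Of 24 protein-coding neighbours of the members' loci, 19 were tested and 1 was called at the high dose. That was IL17C, an epithelial cytokine gene 2807 bp from CYBA. IL17C had 1, 2 and 2 counts in vehicle, 7, 4 and 3 in low-dose, 5, 10 and 8 in medium-dose and 24, 7 and 31 in high-dose libraries. The counts of IL17C were enough for the filter only in the high-dose group, so it had to be higher there to be tested, and its call adds nothing to the counts.

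Next, 6 lists of related genes, 136 genes without the members, were set beside them, with 101 of them tested. At the high dose 7 of the 101 (6.93%) were called, 6 higher and 1 lower, against 2.93% of all genes tested. Of the 7, 5 were in the list of epithelial defence genes. The median log2 fold change of the 101 was 0.07 against 0.01 over all genes tested. The medium dose gave 6 calls (5.94%, against 0.676%) and the low dose 2 (1.98%, against 0.111%), all higher. The lists were written with earlier results of these data known, so these shares are a description only. None of the 11 tested members of the list of other NADPH oxidase genes was called at any dose, although RAC2 (0.40, adjusted p = 0.0496) passed at a smaller fold at the high dose. The 2 highest, POLDIP2 and TRIO, were at 0.19 and −0.02. CYBB, the phagocyte oxidase NOX2, was at 2.21 ± 0.119 CPM in vehicle and 1.59 ± 0.458 at the high dose (adjusted p = 0.303). NOX3, NOX4 and NCF4 had 0 counts in every library, and NOX5 and NCF1 were left out by the filter. NOX1 had the highest CPM of the NOX and DUOX genes in every group.

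Among superoxide and peroxide handling genes, 1 of 20 tested was called at the high dose. TXNRD1, the cytosolic thioredoxin reductase, was at 324, 332 and 357 CPM in vehicle and 557, 551 and 563 CPM at the high dose, with no overlap. It rose by a log2 fold change of 0.72 (SE 0.07), and by 0.65 with the medium dose. The 2 highest of the list, GPX2 (0.28, adjusted p = 0.0661) and PRDX1 (0.24, adjusted p = 0.457), were not called, and AQP3, a channel that passes hydrogen peroxide, was at 0.27 (adjusted p = 0.0332), under 1.5-fold. Of the other oxidant-producing enzymes, 0 of 12 tested were called at any dose. QSOX1, a secreted sulfhydryl oxidase, was at 0.15, and SMOX, spermine oxidase, at 0.44 (adjusted p = 0.00386), under 1.5-fold.

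Among regulators of NOX1 and DUOX2 transcription, 0 of 24 tested were called at any dose. At the high dose 6 of them had an adjusted p under 0.05 at a fold change under 1.5: NFKB2, JUN, FOS, FOSL1, HIF1A and PPARG, with log2 fold changes of 0.27 to 0.52. The 2 highest, STAT6 and SP1, were at 0.00 and 0.09. GATA6, the GATA factor of this list with counts, was at 36.3 ± 0.451 CPM in vehicle and 31.9 ± 1.01 at the high dose, −0.19 with an adjusted p of 0.185, and GATA4 had 0 counts. CDX2, an intestinal homeobox factor, was at 0.40 (adjusted p = 0.052). GATA6, GATA4 and CDX2 were named after their values were seen, because the NOX1 window holds words of their type. Genes under 1.5-fold with an adjusted p under 0.05 were also named after their values were seen.

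Of 21 tested receptors and sensors upstream of NOX1 and DUOX2, IFNGR1, an interferon gamma receptor chain, was called. It was at 59.9, 59.0 and 61.5 CPM in vehicle and 81.4, 141 and 77.5 CPM at the high dose, where the 141 CPM was in high-dose replicate 2. Its log2 fold change was 0.73 (SE 0.18, adjusted p = 0.0313), and it was called in 10 of 21 alternatives and not without that library. EGFR (0.27, adjusted p = 0.541) and TGFBR2 (−0.08), the 2 highest, were not called. TNFRSF1A, a TNF receptor, was at 0.38 (adjusted p = 0.0122) and TLR4, the endotoxin receptor, at 0.44 (adjusted p = 0.00605), both under 1.5-fold.

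Of the epithelial defence genes often raised with DUOX2, 5 of 13 tested were called at the high dose, 4 higher and 1 lower. CXCL1, a neutrophil chemokine, went from 1.98, 1.45 and 1.49 CPM in vehicle to 22.2, 34.5 and 23.8 CPM at the high dose. CXCL8, another one, rose by 3.08 (SE 0.27) and CCL20, a chemokine for CCR6-bearing cells, by 4.00 (SE 0.32) on the log2 scale. In vehicle CCL20 was near the floor, at 0.220, 0.364 and 0.483 CPM, against 4.46, 8.49 and 5.07 CPM at the high dose. The size of its rise therefore rests on few vehicle reads. It was left out by the filter of at least 10 counts in every library and was called in the other 20 alternatives. PI3, the elastase inhibitor elafin, rose by 2.14 (SE 0.13). The same 4 genes and PIGR, the receptor that carries IgA across the epithelium, were called higher at the medium dose, PIGR with 1.61 (SE 0.18). TFF3, a goblet cell peptide, was lower by a log2 fold change of −0.67 (SE 0.17, adjusted p = 0.0387), called in 8 of 21 alternatives. LCN2, the highest after TNFAIP2, was at 0.35 (adjusted p = 0.0264) and TNFAIP2 at 0.42 (adjusted p = 0.046), both under 1.5-fold. DUOX2 itself had 4 counts in vehicle and 10 at the high dose beside these genes.

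**Figure D5:**
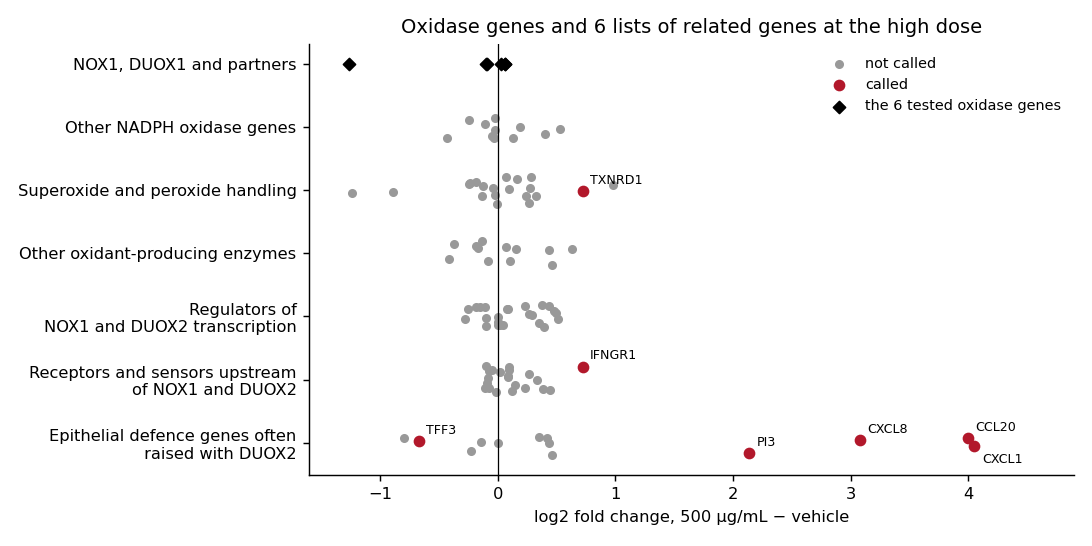
Log2 fold change at 500 µg/mL against vehicle (horizontal axis) for the 6 tested oxidase genes (diamonds, top line) and the tested genes of 6 lists of related genes (points, shifted up or down at random within a line); larger red points with names were called. The 7 called genes are named, CXCL1 at 4.04 and CCL20 at 4.00 lie furthest right, and NOX1 at −1.26 is the lowest diamond.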

How the data were processed

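RNA from 12 HT29 libraries (MGIEasy directional kit, 100 bp paired ends) was sequenced. Per the labels, the authors used FastQC 0.11.9, Trim Galore 0.6.5, STAR 2.7.3a and RSEM 1.3.3; the strand setting is not given in the sources used here. The authors deposited RSEM expected counts per Ensembl gene with no normalization. Gene places come from GENCODE 44 (GRCh38), which held 93.2% of the IDs.

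These expected counts, rounded to integers, were fitted in edgeR 4.0.16 (R 4.3.3) with filterByExpr, TMM, the 4 groups as the only terms and a robust quasi-likelihood test, leaving 15374 genes, with Benjamini-Hochberg adjustment over all of them. A gene was called at a fold change over 1.5 with an adjusted p under 0.05. CPM were TMM-scaled, and log2 CPM used a prior count of 2. DESeq2 1.42.0 was an alternative, as were other size factors, mitochondrial genes left out of library sizes, other filters, no minimum fold change, a replicate block and each library left out. P-values measure the spread between these libraries only. The fits were tested on simulated data. Figures were drawn in matplotlib 3.10.9.

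The members, lists, motifs and tests were chosen with earlier results of these data known. The text names all 9 members. From each list it names up to 4 genes called at the high dose, up to 2 more called at the other doses, and the 2 of highest mean CPM. It also names the 2 nearest protein-coding genes on each side of a locus and the 5 genes most like NOX1, and others only as stated. SOD2, in a list, was not matched by ID and is not reported here. A few genes that this rule would name are not reported here.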

Additional observations from a re-analysis of the deposited data

How the results depend on the processing

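The counts of called genes moved with the analysis. At the high dose, 451 calls became 172 with edgeR on the 2 groups compared, 887 with no minimum fold change, and 310 to 768 with 1 library left out. The medium dose gave 104, against 176 with DESeq2 and 191 with edgeR on the 2 groups compared, and 52 to 249 with 1 library left out. The low dose gave 17, against 59 with DESeq2 on all libraries, 79 with DESeq2 and 51 with edgeR on the 2 groups compared, 34 with no filter, and 10 to 109 with 1 library left out. Between the high and low doses, 243 calls became 87 with edgeR on the 2 groups compared, 458 with no minimum fold change, and 160 to 335 with 1 library left out. Without high-dose replicate 2 the counts were 768, 249, 109 and 335, which are the upper ends of these ranges; the cause was not tested. Calls in the related lists went from 7 to 20 with no minimum fold change and were 5 to 9 with 1 library left out. Of 480 recomputed log2 fold changes of the members, 479 moved by less than the spread between replicates. The 1 that moved further was DUOX1 at the medium dose, 0.47 without vehicle replicate 2, and 0 called values reversed. NOX1 ranged from −1.32 to −1.21 at the high dose and from −0.64 to −0.55 at the medium dose, where 3 of 21 alternatives ended its call. The replicate numbers did not pair the libraries: 5 of 18 same-number pairs correlated above 0.1 (range −0.495 to 0.372). In 2 of 12 libraries the mean correlation was higher with libraries of the same number than with those of other numbers. With the replicate number as a block, 379, 75, 17 and 197 genes were called in the same 4 comparisons, 1 member and 6 related genes at the high dose. Depth limits NOXA1 and the DUOX genes most, at 0 to 81 counts per library.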
